A study of Mus musculus with 18 samples.

Results

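The genes described here are 60 cell cycle and mitosis genes, listed by name, with earlier results of these data known. They were split into 29 genes of the G1/S transition, 25 genes of G2 and mitosis (G2/M), 5 inhibitors of cyclin dependent kinases (CDKs) and 1 antisense RNA. Of these, 59 had a row among the 54532 genes of the count table, and all 59 were among the 14317 genes that passed the filter on low counts. The antisense RNA, *Foxm1os*, was not analysed here. The libraries were made from poly(A) RNA of 10T1/2 cells, a multipotent mouse mesenchymal line, in 6 groups of 3. They were WT cells and 2 FOXS1 KO lines, clone 1 and clone 2, each grown from 1 single cell after CRISPR-Cas9 cutting of the *Foxs1* exon with paired guides. Uninduced cells had no further treatment named in the labels, and stimulated cells received TGF-β1 (1 nM, 12 h) followed by 48 h of DMII, an adipogenic mix of indomethacin, insulin, dexamethasone and the phosphodiesterase inhibitor IBMX. Treatment began at 2 days past confluence. The paper's methods also give an overnight serum starvation before TGF-β1, and its text does not say whether the uninduced cells were starved. When the uninduced cells were harvested is not given in the labels. Starvation, time in culture and stimulation therefore cannot be told apart. Each genotype is thus 1 line, and the loss of FOXS1 cannot be told apart from what else differs between these lines. Nothing in the labels says that the libraries of a group came from separate cultures, so p-values measure only the spread between these libraries, which may be technical.

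Cells enter the cycle when D-type cyclins with CDK4 or CDK6, and then cyclin E with CDK2, phosphorylate the retinoblastoma (pocket) proteins and release E2F factors, which switch on genes for origin licensing, nucleotide supply and DNA replication. The CDK inhibitors of the INK4 and KIP families hold this step back. Genes for the mitotic cyclins, the spindle and the kinetochore come on later, and their promoters commonly hold CCAAT boxes, bound by NF-Y, and a cell cycle genes homology region (CHR), bound by MuvB complexes. In 10T1/2 cells and other preadipocytes, contact at confluence arrests growth, and adipogenic hormones can bring on a last round or more of division before differentiation.

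*Foxs1*, the targeted gene, had 1.64 to 3.25 CPM (counts scaled to a common library size) in the 6 WT libraries and 21.1 to 56.8 CPM in the 12 libraries labelled FOXS1 KO. Counts over the whole gene do not show whether the bases cut by the guides are present, so they check nothing about the label. The paper reports that western blots of both clones lacked FOXS1 protein and that sequencing of genomic DNA found the locus disrupted. Totals ran from 15576685 to 42005596 counts per library. The summed level of 7 fibroblast markers ran from 33898 to 79233 CPM in a library, while *Thy1*, 1 of the 7, lay at 0.87 CPM or less in all 6 clone 2 libraries. The leukocyte marker *Ptprc* had no count, and the summed epithelial, endothelial and leukocyte markers reached at most 3.28, 1.63 and 1.45 CPM. The 4 adipocyte markers summed to 30.5 to 43.0 CPM in stimulated clone 1 and to at most 4.64 CPM in every other group.

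Promoters of the members differed in the motifs that their class is known for. RefSeq promoter sequences (build GRCm38.p6, from 250 bases before to 50 after the start) matched 49 of the 59 members. On either strand of these 300 bases, the CHR letters TTTGAA occurred in 14 of 20 G2/M promoters (70.0%), 3 of 24 G1/S promoters (12.5%) and 18.1% of all 27025 promoters. CCAAT occurred in 18 of the 20 G2/M promoters (90.0%), 14 of the 24 G1/S promoters (58.3%) and 37.9% of all promoters. One of the E2F letters TTTCCCGC, TTTCGCGC, TTTGCCGC or TTTGGCGC occurred in 11 of the 24 G1/S promoters (45.8%), 1 of the 20 G2/M promoters (5.0%) and 2.32% of all promoters. A match describes these letters only, and is no measure of binding. Shown are the 150 bases before the start for 3 members of each class whose window lies outside annotated exons, 5′ to 3′ on the strand of the gene, with CHR, CCAAT and E2F letters (or their complements) in capitals.
Top2a, G2/M, chr11:99024190-99024339, minus strand: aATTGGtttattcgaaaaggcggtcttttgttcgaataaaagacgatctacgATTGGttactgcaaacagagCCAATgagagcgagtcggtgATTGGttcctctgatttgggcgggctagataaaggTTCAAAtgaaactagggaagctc
Ttk, G2/M, chr9:83834539-83834688, plus strand: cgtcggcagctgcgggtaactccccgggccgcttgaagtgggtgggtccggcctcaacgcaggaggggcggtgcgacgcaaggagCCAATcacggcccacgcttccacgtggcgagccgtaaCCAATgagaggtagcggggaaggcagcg
Cenpf, G2/M, chr1:189688087-189688236, minus strand: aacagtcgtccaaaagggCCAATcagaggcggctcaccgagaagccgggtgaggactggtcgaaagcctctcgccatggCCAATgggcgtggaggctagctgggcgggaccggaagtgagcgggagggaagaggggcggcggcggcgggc
Cdc25a, G1/S, chr9:109875429-109875578, plus strand: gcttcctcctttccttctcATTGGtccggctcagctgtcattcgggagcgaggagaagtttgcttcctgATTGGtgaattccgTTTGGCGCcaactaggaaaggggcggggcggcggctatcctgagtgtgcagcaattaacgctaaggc
Rbl1, G1/S, chr2:157204535-157204684, minus strand: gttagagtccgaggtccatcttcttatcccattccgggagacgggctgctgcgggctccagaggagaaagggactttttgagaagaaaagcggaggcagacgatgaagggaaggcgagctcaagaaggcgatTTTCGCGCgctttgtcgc
E2f8, G1/S, chr7:48881597-48881746, minus strand: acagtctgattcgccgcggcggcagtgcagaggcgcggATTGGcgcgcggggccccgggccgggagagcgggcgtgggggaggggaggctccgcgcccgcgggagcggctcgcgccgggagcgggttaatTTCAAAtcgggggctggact
The *Top2a* segment holds 1 CHR and 4 CCAAT matches, and those of *Ttk* and *Cenpf* 2 CCAAT matches each. Over the 300 bases searched, *Ttk* and *Cenpf* also held CHR letters, which do not lie within the 150 bases shown. The *Cdc25a* segment holds 1 E2F and 2 CCAAT matches, that of *Rbl1* 1 E2F match and that of *E2f8* 1 CHR and 1 CCAAT match.

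The class medians of the members stood differently against WT after stimulation. In uninduced cells both classes were higher in both FOXS1 KO clones than in WT, by the class medians. In stimulated cells the G2/M median was again higher and the G1/S median lower. The median difference in response from WT (log2) was -0.41 for G1/S and 0.41 for G2/M genes in clone 1. In clone 2 it was downward for both, at -0.55 and -0.32. For 32 other G1/S genes, given below, the median of stimulated clone 1 lay above WT, at 0.17. A gene is called higher or lower here at a Benjamini-Hochberg adjusted p below 0.05 (edgeR quasi-likelihood test over all 14317 genes), and a differentially expressed gene (DEG) where the log2 fold change also exceeded 1 in either direction. For each library, the level of every gene was also set against its mean in uninduced WT on the log2 (CPM + 0.5) scale. The median of this difference over the 25 G2/M genes was -0.072, 0.014 and -0.003 in uninduced WT, 0.47, 0.44 and 0.50 in uninduced clone 1 and 0.82, 0.65 and 0.78 in uninduced clone 2. After stimulation it was 0.32, 0.50 and 0.44 in WT, 1.28, 1.29 and 1.43 in clone 1 and 0.74, 0.71 and 0.70 in clone 2. Every clone library lay above every WT library of its treatment. Over the 29 G1/S genes the medians of uninduced libraries were -0.013 to 0.001 in WT, 0.29 to 0.37 in clone 1 and from 0.25 up to 0.30 in clone 2, and those of stimulated libraries were 0.22 to 0.30 in WT, from -0.092 up to 0.075 in clone 1 and from -0.23 up to -0.059 in clone 2. On this median all clone libraries lay above WT when uninduced and all below it when stimulated. Among the 14 licensing, fork and nucleotide genes of this class, however, stimulated clone 1 had medians of 0.38, 0.37 and 0.56, above the 0.28, 0.28 and 0.31 of stimulated WT, and clone 2 had 0.021, -0.071 and -0.011, below WT. In bulk RNA, fewer cells in a phase of the cycle and less RNA of a gene per cell cannot be told apart.

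**Figure D1:**
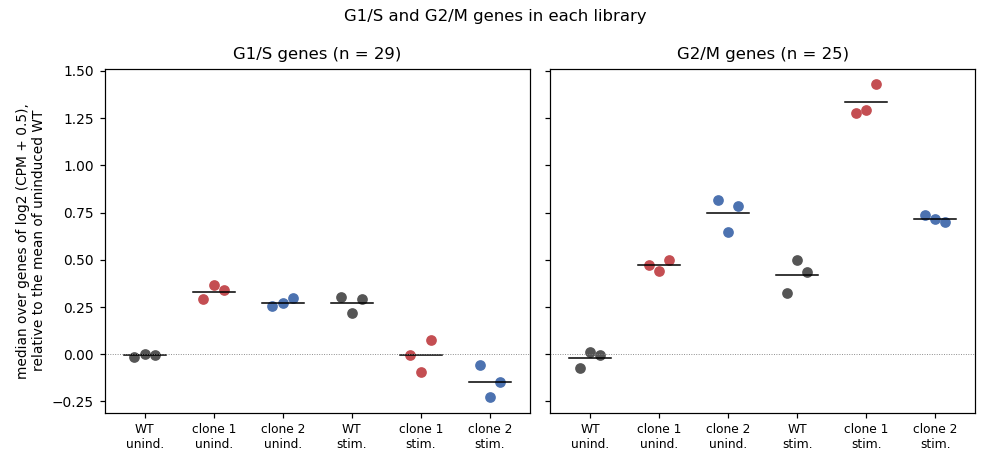
Median over the 29 G1/S genes (left) and the 25 G2/M genes (right) of log2 (CPM + 0.5) relative to the mean of uninduced WT, for each library (points) with the mean of the 3 libraries of a group (bars). Stimulated clone 1 reached 1.28 to 1.43 for the G2/M genes, whereas stimulated clones lay below stimulated WT for the median of all 29 G1/S genes.

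In uninduced clone 1, 15 of 29 G1/S genes were higher and 4 lower than in WT (median log2 fold change 0.34), and 15 of 25 G2/M genes were higher and 1 lower (0.52). Over all 59 members 30 were higher and 9 lower, against 26.3% and 27.2% of all genes tested, and 5 were higher and 2 lower as DEGs, against 6.32% and 8.73%. In uninduced clone 2, 17 G1/S genes were higher and 1 lower (median 0.33), and 22 G2/M genes were higher and 1 lower (0.80). Of the 59 members 39 were higher and 5 lower in clone 2, against 26.3% and 26.9% of all genes tested, and 11 were higher and 2 lower as DEGs, against 5.54% and 9.56%. The median log2 fold change of all genes tested was -0.0075 in clone 1 and -0.017 in clone 2. Both clones share 1 set of 3 WT libraries, and their counts are therefore not independent of each other.

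In stimulated clone 1, 24 of 25 G2/M genes were higher than in WT and none was lower (median log2 fold change 0.84), while 9 of 29 G1/S genes were higher and 12 lower (-0.12). In stimulated clone 2, 14 G2/M genes were higher and 4 lower (0.31), while 7 G1/S genes were higher and 16 lower (-0.48). Over all 59 members, 34 were higher and 15 lower in clone 1, against 28.4% and 30.5% of all genes tested, and 10 were higher and 7 lower as DEGs, against 9.42% and 9.6%. In clone 2, 22 were higher and 23 lower, against 27.7% and 28.3%, and 3 were higher and 5 lower as DEGs, against 7.95% and 8.94%. The median over all genes tested was -0.015 in clone 1 and -0.0097 in clone 2. Of the 29 G1/S genes, 9 were higher uninduced and lower stimulated in clone 2 (*Ccnd1*, *Ccnd2*, *E2f8*, *Mcm2*, *Mcm3*, *Mcm5*, *Mcm6*, *Rrm1* and *Rrm2*), and 2 were in clone 1 (*E2f8* and *Rrm2*). The uninduced clone 2 calls of *Ccnd1* (adjusted p = 0.0395, edgeR), *E2f8* (0.0413) and *Mcm6* (0.0303) and its stimulated call of *Rrm1* were each lost when 1 of several single libraries was left out. With library totals in place of the TMM (trimmed mean of M values) scaling the median of all genes shifted by -0.11 in stimulated clone 2 against WT, whose members then split into 20 higher and 25 lower, with 1 and 9 as DEGs.

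**Figure D2:**
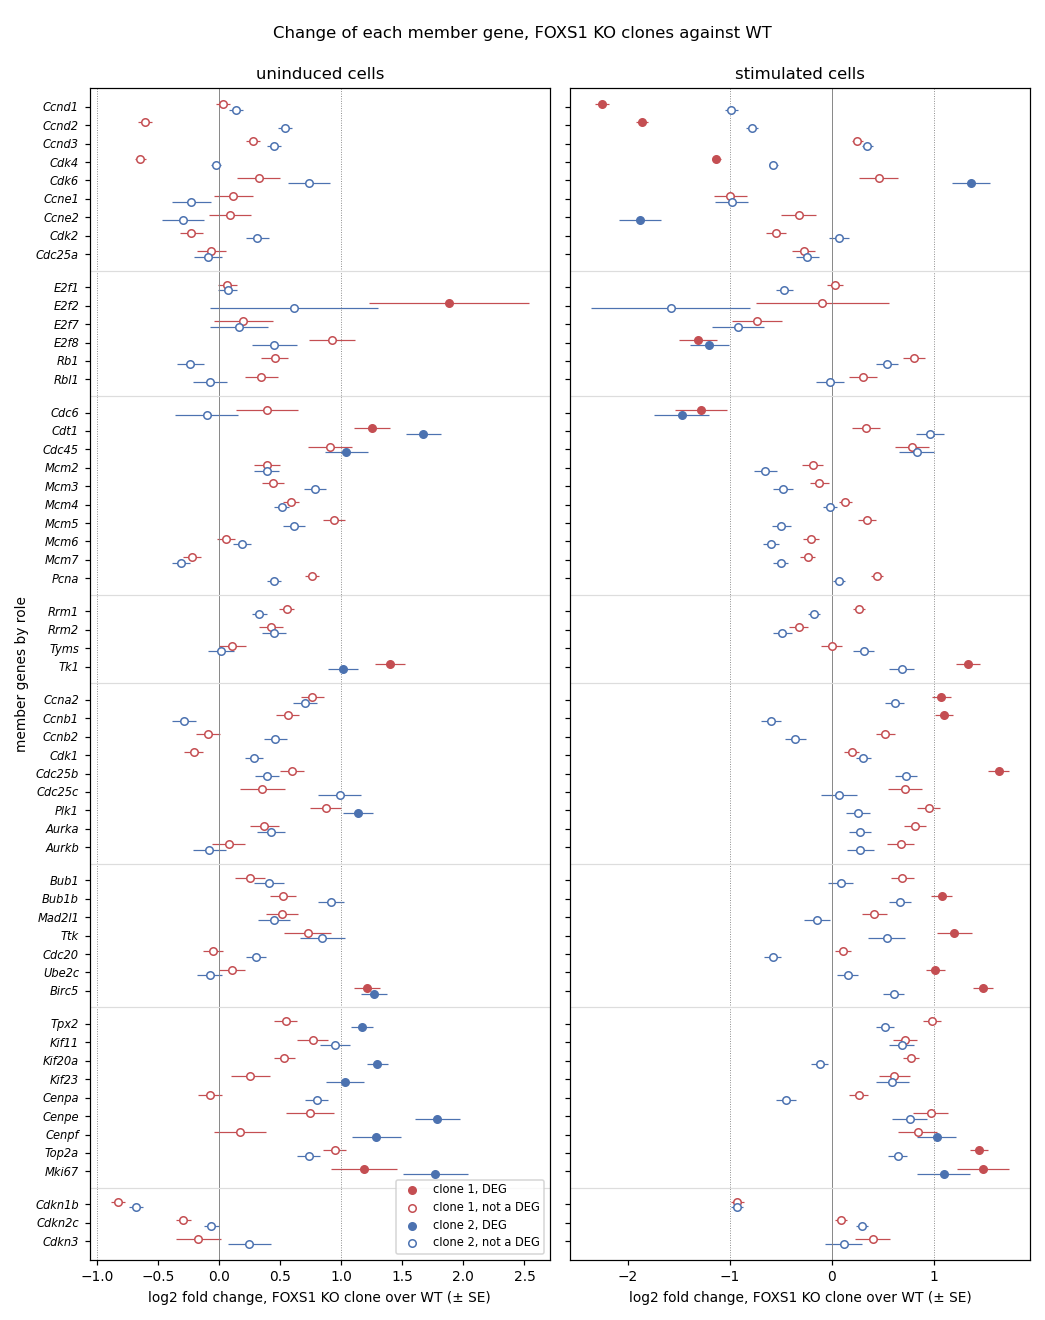
Log2 fold change (± SE, edgeR, n = 3 libraries a group) of each member in clone 1 (red) and clone 2 (blue) over WT, uninduced (left) and stimulated (right), with members grouped by role and DEGs as filled points. *Cdkn2a* and *Cdkn2b*, which had no count in either clone, are not drawn. *Ccnd1* lay at -2.25 in stimulated clone 1, and *Cenpe* at 1.79 in uninduced clone 2.

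The CDK inhibitors held the largest differences among the members. *Cdkn2a* (ENSMUSG00000044303, GRCm38 chr4:89274471-89294653, minus strand) encodes INK4A, which inhibits CDK4 and CDK6, and ARF, which stabilizes p53. It measured 27.1, 35.6 and 36.1 CPM in the uninduced and 29.1, 28.7 and 32.8 CPM in the stimulated WT libraries, a sum of 2091 and 1987 counts. Its neighbour *Cdkn2b* (ENSMUSG00000073802, chr4:89306299-89311039, minus strand), which encodes INK4B, a TGF-β target in other cells, measured 39.4, 40.7 and 37.4 CPM uninduced and 35.5, 36.7 and 34.1 CPM stimulated in WT, with 2434 and 2332 counts. Neither gene had a count in any of the 12 FOXS1 KO libraries. Set against a floor of 3 counts over the group, *Cdkn2a* was at least 630.9-fold lower in uninduced clone 1, 929-fold in uninduced clone 2, 683-fold in stimulated clone 1 and 501-fold in stimulated clone 2. The same bounds for *Cdkn2b* were 750.3-fold, 1105-fold, 801.5-fold and 587.9-fold. Both were DEGs in all 4 comparisons of a clone with WT, with adjusted p between 9.12e-17 and 3.91e-19 (edgeR), and in WT stimulation changed neither by the test (adjusted p = 0.413 for *Cdkn2a* and 0.258 for *Cdkn2b*). Floors cover counting error only.

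Genes on both sides of the pair were counted in the clones. Distances here are between the lowest coordinates of the genes, whatever their strand. *Mtap*, 137.3 kb below *Cdkn2a*, had 12126 counts in uninduced WT, 17982 in clone 1 and 24768 in clone 2, and 22061, 19898 and 20745 counts stimulated. *Gm26490*, at 91.5 kb below *Cdkn2a*, had 3, 17 and 34 counts uninduced and 21, 43 and 68 counts stimulated. It is annotated as a small nucleolar RNA gene (chr4:89182981-89183120) that starts shortly past the end of *Mtap* (89181081). Whether its counts are reads of *Mtap* was not tested. On the other side *Gm12610*, at 147.4 kb above *Cdkn2a*, had 14, 65 and 40 counts uninduced and 8, 26 and 16 counts stimulated. The pair without a count thus lay between genes with counts on either side. Of the 10102 genes that averaged 5 CPM or more in WT, 10 had no count in any FOXS1 KO library, and *Cdkn2a* and *Cdkn2b* were 2 of them. Whether the DNA of these genes is present in the clones was not tested.

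**Figure D3:**
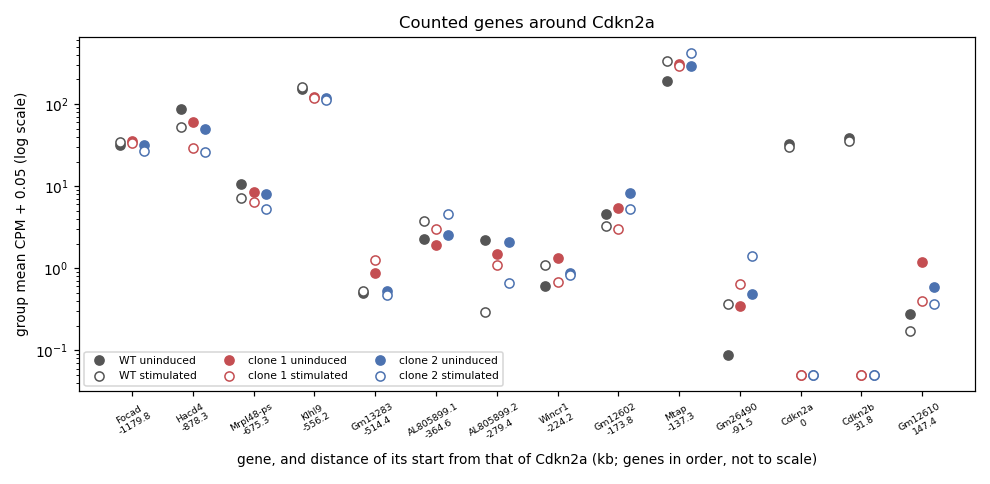
Group mean CPM + 0.05 (log scale) of the genes around *Cdkn2a* that reached 60 counts in a group, in order along chromosome 4 with the distance of each start (lowest coordinate, whatever the strand) from that of *Cdkn2a* in kb, for WT (grey), clone 1 (red) and clone 2 (blue), uninduced (filled) and stimulated (open). *Cdkn2a* and *Cdkn2b* lie at the bottom of the scale, at 0 CPM, in both clones, and *Mtap* and *Gm12610* on either side do not.

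*Cdkn1b*, which encodes KIP1, an inhibitor of cyclin E and CDK2 complexes, was lower in both clones in both treatments. It measured 117, 127 and 128 CPM in uninduced WT, 69.8, 66.8 and 73.0 CPM in clone 1 and 80.2, 79.9 and 71.8 CPM in clone 2. Stimulated WT had 93.7, 94.5 and 97.0 CPM, clone 1 had 50.6, 51.5 and 47.7 CPM and clone 2 had 49.9, 46.6 and 53.0 CPM. No clone library overlapped WT of its treatment. The log2 fold changes were -0.83 ± 0.06 (SE) and -0.68 ± 0.06 uninduced and -0.93 ± 0.06 and -0.93 ± 0.06 stimulated (adjusted p at most 4.86e-11, edgeR), under the fold threshold for a DEG. *Cdkn2c* (INK4C) ranged from 50.3 to 69.6 CPM over all 18 libraries, with differences from WT between -0.30 and 0.29. *Cdkn3*, a phosphatase that acts on CDK1 and CDK2, measured 3.59 to 7.72 CPM, and was higher than WT only in stimulated clone 1 by the test (log2 fold change 0.40 ± 0.17, adjusted p = 0.0474), a call lost when any of the 3 stimulated WT libraries or 2 of the clone 1 libraries was left out.

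Outside the 60 genes, *Cdkn1a*, which encodes the p53 target CIP1, was the only other CDK inhibitor called a DEG of 2 tested. It measured 139.8, 124 and 113 CPM in uninduced WT against 287, 301 and 290.2 CPM in clone 1 and 264, 269.7 and 253 CPM in clone 2. Stimulated WT had 63.3, 58.7 and 64.5 CPM, clone 1 had 257, 251 and 250.0 CPM and clone 2 had 275, 284 and 296 CPM. The groups did not overlap, and the log2 fold changes were 1.22 and 1.06 uninduced and 2.02 and 2.20 stimulated (adjusted p at most 6.93e-16, edgeR). *Cdkn1a* thus lay above WT in the libraries in which *Cdkn2a*, *Cdkn2b* and *Cdkn1b* lay below it.

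**Figure D4:**
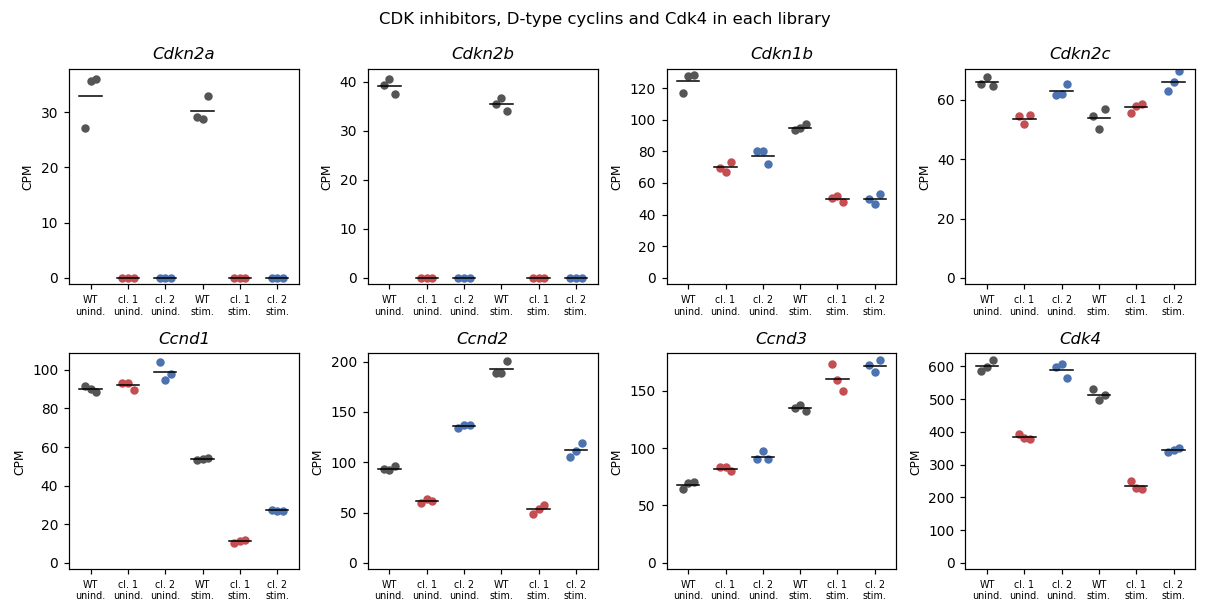
CPM in each of the 18 libraries (points) and group means (bars) for 4 CDK inhibitors, the 3 D-type cyclins and *Cdk4*, in WT (grey), clone 1 (red) and clone 2 (blue). *Cdkn2a* and *Cdkn2b* are at 0 in the clones, *Ccnd1* falls to 10.3 to 12.1 CPM in stimulated clone 1, and *Ccnd2* rises on stimulation in WT, to 188 to 200.4 CPM, and not in the clones.

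Among G1 cyclins and their kinases, the D-type cyclins behaved unlike each other. *Ccnd1* (cyclin D1) measured 91.5, 90.2 and 88.7 CPM in uninduced WT, 93.3, 93.1 and 89.5 CPM in clone 1 and 104, 95.0 and 98.1 CPM in clone 2, a small difference in clone 2 (log2 fold change 0.14) and none past the test in clone 1 (0.03). After stimulation it measured 53.2, 53.9 and 54.3 CPM in WT, 10.3, 11.3 and 12.1 CPM in clone 1 and 27.5, 26.9 and 27.1 CPM in clone 2. The stimulated genotypes did not overlap, with clone 1 lowest. Its log2 fold change against stimulated WT was -2.25 ± 0.07 in clone 1 (adjusted p = 2.32e-22, edgeR) and -0.99 ± 0.06 in clone 2 (adjusted p = 2.74e-14), and its fall on stimulation was -0.74 in WT, -3.03 in clone 1 and -1.87 in clone 2. Exons of another gene lie over 23.4% of the *Ccnd1* exons, and over more than 10% of those of 10 members in all, among them *Cdk4* (19.7%), *Ccne2* (17.4%), *E2f8* (11.2%) and *Kif20a* (29.3%). Whether counting used strand is not given in the sources used here, so reads of such partners cannot be told apart.

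*Ccnd2* (cyclin D2) measured 92.9, 91.9 and 96.2 CPM in uninduced WT, 59.2, 63.5 and 61.4 CPM in clone 1 and 134, 137 and 137 CPM in clone 2. Stimulated WT had 188, 189 and 200.4 CPM, clone 1 had 48.3, 53.6 and 57.2 CPM and clone 2 had 105, 111 and 119 CPM. It thus rose on stimulation in WT (log2 fold change 1.04 ± 0.06) and fell in clone 1 (-0.21 ± 0.06) and clone 2 (-0.29 ± 0.06), and the difference in response was -1.25 ± 0.08 and -1.32 ± 0.08 (adjusted p = 3.06e-13 and 5.22e-14, edgeR). *Ccnd3* (cyclin D3), which is known to rise in adipogenesis, rose by a similar size in every genotype, from 64.3 to 70.2 CPM to 132 to 138 CPM in WT, from 79.7 to 83.5 CPM to 149.5 to 173 CPM in clone 1 and from 90.4 to 97.1 CPM to 166 to 177 CPM in clone 2. Its differences in response from WT were -0.02 ± 0.08 and -0.10 ± 0.08, neither past the test.

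*Cdk4*, the catalytic partner of the D-type cyclins, was lower than in WT in clone 1 in both treatments and in clone 2 when stimulated. The log2 fold changes were -0.65 ± 0.04 in uninduced clone 1, -1.13 ± 0.05 in stimulated clone 1, a DEG, and -0.58 ± 0.04 in stimulated clone 2 (adjusted p at most 3.22e-12, edgeR). Uninduced clone 2 did not pass the test (-0.03 ± 0.04). It measured 587, 598 and 619 CPM in uninduced WT, 392, 382 and 378 CPM in clone 1 and 599, 606 and 565 CPM in clone 2, and after stimulation 530.3, 498 and 512 CPM, 249.5, 227 and 225 CPM, and 339, 346 and 349 CPM. Per kb of exon it had the highest level of any member in uninduced WT, at 185 CPM per kb, followed by *Cdkn2b* at 28.2, *Cdkn2a* at 28.1, *Cdkn1b* at 27.3 and *Cdkn2c* at 24.5. *Cdk6* stood apart in direction, at 9.68 to 12.3 CPM in stimulated WT, 13.3 to 18.5 CPM in clone 1 and 25.0 to 33.7 CPM in clone 2, a DEG in clone 2 (log2 fold change 1.37 ± 0.19, adjusted p = 5.63e-06, edgeR). Of the cyclin E genes, *Ccne2* measured 6.46, 6.78 and 7.98 CPM in stimulated WT, 4.63, 5.38 and 6.88 CPM in clone 1 and 1.68, 2.09 and 1.98 CPM in clone 2, which did not overlap the others and was a DEG (-1.88 ± 0.21, adjusted p = 4.08e-09). Clone 1 overlapped WT and did not pass the test (-0.33 ± 0.17, adjusted p = 0.109). *Ccne1* was lower in both stimulated clones (adjusted p = 3.38e-06 and 7.16e-06), just short of the fold threshold in each (log2 -0.98 ± 0.16 for clone 2). In the role group of 9 genes, 2 were higher and 6 lower in stimulated clone 1, and 2 were higher and 5 lower in stimulated clone 2. The stimulated clone 1 calls of *Cdk6* (adjusted p = 0.0478, edgeR) and *Cdc25a* (0.0354) were each lost when 1 of several single libraries was left out. Of all genes tested, 28.4% were higher and 30.5% lower in stimulated clone 1, and 27.7% and 28.3% in stimulated clone 2.

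Of the 6 E2F and pocket protein genes, 4 were higher in uninduced clone 1 and 1 in uninduced clone 2, and 1 was higher in each stimulated clone, with 2 lower in clone 1 and 3 in clone 2. Of all genes tested, 26.3% were higher in each uninduced clone. When stimulated, 28.4% were higher and 30.5% lower in clone 1, and 27.7% and 28.3% in clone 2. *E2f8*, an atypical E2F that represses E2F target genes, measured 3.15, 4.19 and 3.58 CPM in uninduced WT, 7.38, 6.22 and 7.15 CPM in clone 1 and 4.95, 5.14 and 4.87 CPM in clone 2. The order turned after stimulation, with 7.09, 7.69 and 6.76 CPM in WT, 2.56, 2.88 and 3.23 CPM in clone 1 and 3.98, 2.55 and 2.77 CPM in clone 2. No clone library overlapped WT in either treatment, and the stimulated differences were DEGs (-1.31 ± 0.19, adjusted p = 5.01e-07, and -1.20 ± 0.19, adjusted p = 3.31e-06, edgeR). *E2f1* was lower in stimulated clone 2 only (-0.47 ± 0.08), and *Rb1*, the retinoblastoma gene, was higher in both stimulated clones (0.80 ± 0.10 and 0.54 ± 0.11). *E2f2* was a DEG in uninduced clone 1 (1.88 ± 0.66, adjusted p = 0.0169) on 14, 18 and 38 counts against 0, 10 and 11 in WT, a call lost without WT replicate 1 or clone 1 replicate 3.

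Origin licensing and replication fork genes were mostly higher in the uninduced clones (7 of 10 in clone 1 and 8 of 10 in clone 2, with 1 lower in each) and split when stimulated (4 higher and 3 lower in clone 1, 2 higher and 6 lower in clone 2). Of all genes tested, 26.3% were higher in each uninduced clone, and 27.2% and 26.9% were lower in clones 1 and 2. When stimulated, 28.4% were higher and 30.5% lower in clone 1, and 27.7% and 28.3% in clone 2. *Cdt1*, which loads the MCM helicase at origins, measured 5.42, 9.80 and 10.8 CPM in uninduced WT, 19.4, 21.8 and 21.9 CPM in clone 1 and 28.8, 28.0 and 27.5 CPM in clone 2, without overlap (log2 fold changes 1.25 ± 0.15 and 1.67 ± 0.15, adjusted p = 1.02e-07 and 3.77e-10, edgeR). *Cdc6*, its partner in loading, went the other way after stimulation. It measured 7.92, 8.51 and 8.52 CPM in stimulated WT, 1.97, 2.84 and 5.37 CPM in clone 1 and 2.91, 2.94 and 3.13 CPM in clone 2, again without overlap (-1.29 ± 0.26 and -1.47 ± 0.27, adjusted p = 1.05e-04 and 3.83e-05). The 6 MCM helicase subunit genes ranged from -0.22 to 0.94 in uninduced clone 1 and -0.32 to 0.78 in uninduced clone 2, with 4 and 5 higher and *Mcm7* lower in each. In stimulated clone 2 none was higher and 5 were lower, from -0.65 to -0.02, while in stimulated clone 1 a single gene was higher and 2 lower.

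Of the nucleotide synthesis genes, *Tk1* (thymidine kinase) was higher in all 4 comparisons. It measured 11.6, 15.9 and 15.7 CPM in uninduced WT, 36.5, 38.5 and 39.7 CPM in clone 1 and 32.3, 29.1 and 25.7 CPM in clone 2, and after stimulation 14.0, 13.7 and 13.8 CPM, 36.2, 29.2 and 39.4 CPM, and 25.0, 18.9 and 22.6 CPM. The clones did not overlap WT, and it was a DEG in both uninduced clones (1.40 ± 0.12 and 1.01 ± 0.12) and in stimulated clone 1 (1.33 ± 0.12), with 0.69 ± 0.13 in stimulated clone 2 (adjusted p at most 3.19e-05, edgeR). *Rrm2*, the small subunit of ribonucleotide reductase, was higher in both clones uninduced (0.42 and 0.45) and lower in both stimulated (-0.32 and -0.48).

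Among mitotic cyclins, kinases and phosphatases, all 9 genes were higher in stimulated clone 1 than in WT, against 28.4% of all genes tested. In stimulated clone 2, 4 were higher and 2 lower, against 27.7% and 28.3%. In uninduced clone 1, 5 were higher and 1 lower, against 26.3% and 27.2%. In uninduced clone 2, 7 were higher and 1 lower, against 26.3% and 26.9%. *Cdc25b*, a phosphatase that activates CDK1, measured 13.2, 13.1 and 14.1 CPM in stimulated WT, 41.5, 37.9 and 46.1 CPM in clone 1 and 20.0, 24.8 and 22.0 CPM in clone 2, with no overlap between the genotypes (1.64 ± 0.10, adjusted p = 2.28e-14, and 0.72 ± 0.11, adjusted p = 1.27e-06, edgeR). *Plk1*, the polo kinase of mitotic entry, measured 9.20, 11.7 and 13.2 CPM in uninduced WT, 22.4, 21.6 and 19.1 CPM in clone 1 and 25.9, 24.4 and 25.2 CPM in clone 2 (0.87 ± 0.13 and 1.13 ± 0.12). *Ccnb1* (cyclin B1) divided the clones. It measured 35.3, 37.2 and 41.5 CPM in stimulated WT, 83.9, 72.1 and 89.0 CPM in clone 1 and 25.7, 23.9 and 25.9 CPM in clone 2, so that clone 1 lay above and clone 2 below WT (1.10 ± 0.09 and -0.59 ± 0.10, adjusted p = 1.09e-11 and 5.66e-06). *Cdk1* itself differed by no more than 0.31 from WT in any of the 4 comparisons.

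Spindle checkpoint and anaphase genes were higher in stimulated clone 1 for 6 of 7 genes, 4 of them DEGs, against 28.4% and 9.42% of all genes tested. In stimulated clone 2, 3 were higher and 1 lower, against 27.7% and 28.3%, and none was a DEG, against 7.95% and 8.94%. In uninduced cells 4 were higher in clone 1 and 6 in clone 2, against 26.3% in each, and none was lower, against 27.2% and 26.9%. *Birc5* (survivin), a subunit of the chromosomal passenger complex, measured 10.8, 10.7 and 12.4 CPM in uninduced WT, 28.5, 24.1 and 26.3 CPM in clone 1 and 26.9, 28.0 and 27.1 CPM in clone 2. After stimulation it measured 12.9, 16.2 and 14.2 CPM, 44.2, 39.3 and 38.0 CPM, and 24.3, 19.7 and 21.9 CPM. No clone library overlapped WT, and *Birc5* was a DEG in both uninduced clones (1.21 ± 0.11 and 1.27 ± 0.10, adjusted p = 5.07e-11 and 1.42e-11, edgeR) and in stimulated clone 1 (1.48 ± 0.10). *Ttk*, the checkpoint kinase MPS1, measured 5.53, 6.35 and 6.31 CPM in stimulated WT, 11.7, 12.5 and 17.7 CPM in clone 1 and 10.3, 8.43 and 7.64 CPM in clone 2 (1.20 ± 0.17 and 0.54 ± 0.18). *Cdc20*, the activator of the anaphase promoting complex, was the member of the 7 that did not pass in stimulated clone 1 (0.11 ± 0.08), and it was lower in stimulated clone 2 (-0.58 ± 0.08).

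Genes of the spindle, kinetochore and chromosomes were higher in uninduced clone 2 for all 9 genes, 6 of them DEGs, and in stimulated clone 1 for all 9, 2 of them DEGs. Of all genes tested, 26.3% were higher and 5.54% higher as DEGs in uninduced clone 2, and 28.4% and 9.42% in stimulated clone 1. In uninduced clone 1, 6 of the 9 were higher and none lower, against 26.3% and 27.2%. In stimulated clone 2, 7 were higher and 1 lower, against 27.7% and 28.3%. *Mki67*, the gene of the proliferation antigen Ki-67, was a DEG in all 4 comparisons. It measured 14.7, 6.55 and 11.7 CPM in uninduced WT, 22.7, 30.9 and 21.2 CPM in clone 1 and 36.0, 34.7 and 41.7 CPM in clone 2, and after stimulation 13.1, 16.8 and 15.1 CPM, 29.5, 43.2 and 53.3 CPM, and 36.4, 28.9 and 31.3 CPM. The clones did not overlap WT (1.19 ± 0.27 and 1.77 ± 0.26 uninduced, 1.49 ± 0.25 and 1.10 ± 0.26 stimulated, adjusted p at most 0.00261, edgeR). *Cenpe*, a kinetochore motor, measured 4.66, 4.09 and 6.44 CPM in uninduced WT, 9.53, 8.96 and 7.35 CPM in clone 1 and 17.4, 15.9 and 20.2 CPM in clone 2, with no overlap (0.74 ± 0.19 and 1.79 ± 0.18, adjusted p = 0.00229 and 7.11e-09). *Top2a* (topoisomerase IIα), which untangles chromosomes and whose promoter is printed above, measured 78.7, 91.9 and 80.5 CPM in stimulated WT, 204, 228 and 250.3 CPM in clone 1 and 133, 129 and 131 CPM in clone 2 (1.44 ± 0.09 and 0.65 ± 0.09).

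Stimulation was tested next within each line. In WT, 19 of 25 G2/M genes rose and 1 fell (median log2 fold change 0.44), and 15 of 29 G1/S genes rose and 6 fell (0.27). On library totals in place of TMM these counts were 10 and 2 for the G2/M genes and 6 and 8 for the G1/S genes. Of the 59 members 34 rose and 9 fell, against 28.8% and 31.9% of all genes tested, and 3 rose as DEGs (*Ccnd2*, *Cdt1* and *Plk1*, at 1.04, 1.03 and 1.11) and none fell, against 6.25% and 13.6%. The number of DEGs ran from 2 to 7 with 1 library left out, and was 7 without uninduced replicate 2 or replicate 3. That scaling shifted the median of all genes by -0.22, and the WT members then split into 16 rises and 14 falls, with 0 and 2 as DEGs. The direction of the G1/S genes in WT therefore depends on the scaling, with a median of 0.044 on library totals, while the G2/M median stayed above 0 at 0.22.

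In clone 1, 24 of 25 G2/M genes rose on stimulation and none fell (median 0.82), while 5 of 29 G1/S genes rose and 14 fell (-0.26). Of the 59 members 30 rose and 15 fell, against 25.9% and 28.6% of all genes tested, and 10 rose and 2 fell as DEGs, against 5.95% and 10.7%. In clone 2, 6 G2/M genes rose and 8 fell (0.06), and 4 G1/S genes rose and 15 fell (-0.29). Of the 59 members 10 rose and 24 fell, against 26.7% and 29.1%, and 2 rose and 4 fell as DEGs, against 6.46% and 11.2%. On library totals, which shifted all genes by -0.24 in clone 1 and -0.29 in clone 2, the members split into 24 rises and 24 falls in clone 1 (5 and 5 as DEGs) and 6 rises and 35 falls in clone 2 (0 and 10). The G2/M genes then gave 20 rises and no fall in clone 1 and 3 rises and 11 falls in clone 2. The G2/M median was 0.58 in clone 1 and -0.23 in clone 2, and the G1/S median -0.50 and -0.58.

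The difference between the response of a clone and that of WT moved by less than 0.1 with this scaling. For clone 1, 15 of 29 G1/S genes responded lower than in WT and none higher (median -0.41), and 11 of 25 G2/M genes responded higher and none lower (0.41). Of the 59 members 12 were higher and 15 lower, against 15.9% and 15.7% of all genes tested, and 1 was higher and 5 lower as DEGs, against 5.34% and 3.46%. For clone 2, 18 G1/S genes responded lower and 1 higher (-0.55), and 10 G2/M genes responded lower and none higher (-0.32). Of the 59 members 2 were higher and 29 lower, against 15.9% and 15.3%, and 0 were higher and 12 lower as DEGs, against 4.89% and 2.96%. Calls of the G1/S genes were thus downward in both clones apart from the 1 in clone 2, and those of the G2/M genes were upward in clone 1 and downward in clone 2, while 14 and 15 of the 25 G2/M genes passed in neither direction. *Mcm3* shows the clone 2 pattern, with 61.4, 61.6 and 62.0 CPM uninduced and 26.5, 26.0 and 24.5 CPM stimulated, against 32.1 to 39.5 CPM and 34.9 to 36.8 CPM in WT. *Kif20a*, a motor of cytokinesis, went from 58.6, 55.5 and 62.0 CPM to 39.4, 40.8 and 37.6 CPM in clone 2, from 33.3 to 35.6 CPM to 65.4 to 83.9 CPM in clone 1 and from 23.3 to 25.0 CPM to 40.0 to 46.5 CPM in WT.

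**Figure D5:**
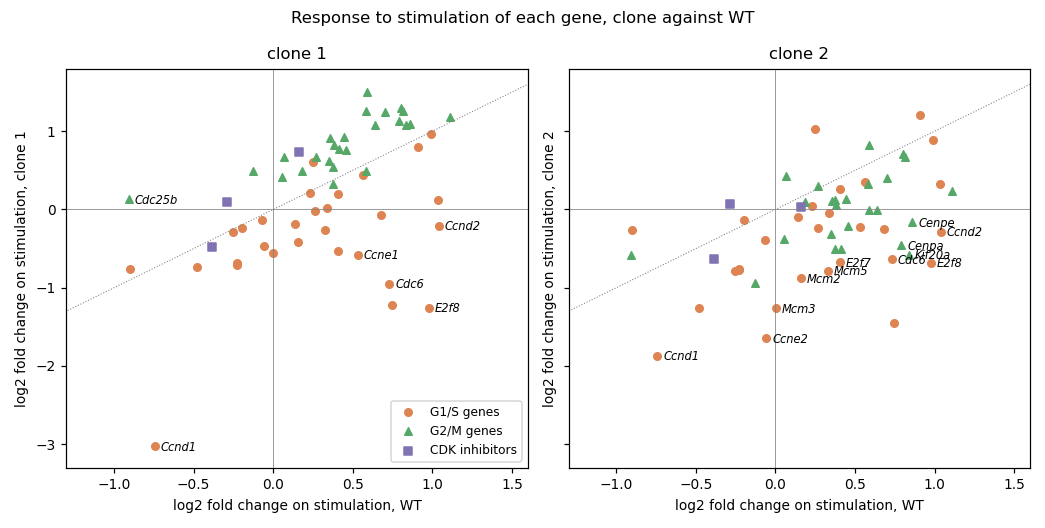
Log2 fold change on stimulation of each member in WT (horizontal) against clone 1 (left) and clone 2 (right), without *Cdkn2a* and *Cdkn2b*; the dotted line marks equal response, and genes whose difference in response was a DEG are named. Most G2/M genes lie above the line in clone 1, where *Cdc25b* is at 0.13 against -0.91 in WT, and G1/S genes mostly lie below it in both clones.

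Compared directly, the clones differed from each other. In uninduced cells no member was a DEG higher in clone 1 and 3 were lower, against 4.89% and 3.78% of all genes tested, and 8 were higher and 19 lower by the adjusted p, against 21% and 21.2%. In stimulated cells 2 were DEGs higher in clone 1 (*Ccnb1* at 1.70 and *Ccne2* at 1.56) and 2 lower (*Ccnd1* at -1.27 and *Ccnd2* at -1.07), against 5.5% and 4.48%, and 30 were higher and 8 lower by the adjusted p, against 22.2% and 23.2%. The 25 G2/M genes gave most of these, with 19 higher in stimulated clone 1 and none lower, at a median of 0.61, after 1 higher and 11 lower in uninduced cells, at -0.26.

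Further genes of the pathway, listed beside the members and with none shared, were counted in the same way. Of 44 other G2/M genes, 32 were higher and 1 lower in uninduced clone 1 (median log2 fold change 0.49), 37 and 0 in uninduced clone 2 (0.76), 38 and 1 in stimulated clone 1 (0.57) and 21 and 5 in stimulated clone 2 (0.28). Of 32 other G1/S and replication genes, 13 were higher and 4 lower in uninduced clone 1 (0.27), 10 and 3 in uninduced clone 2 (0.06), 9 and 9 in stimulated clone 1 (0.17) and 2 and 13 in stimulated clone 2 (-0.33). Of all genes tested, 26.3% were higher and 27.2% lower in uninduced clone 1, and 26.3% and 26.9% in uninduced clone 2. The shares were 28.4% and 30.5% in stimulated clone 1, and 27.7% and 28.3% in stimulated clone 2. The 9 and 9 of 32 in stimulated clone 1 lay near its shares. The median of these 32 genes there was positive, at 0.17, against -0.12 for the 29 G1/S members. In the difference of response from WT, the other G2/M genes had 7 higher and 4 lower in clone 1 (0.16) and 0 and 23 in clone 2 (-0.49), and the other G1/S genes had 2 higher and 9 lower in clone 1 (-0.16) and 2 and 11 in clone 2 (-0.37). Of all genes tested, 15.9% responded higher and 15.7% lower in clone 1, and 15.9% and 15.3% in clone 2. The other G2/M genes of clone 1 were thus called in both directions. Among these *Cenpm*, a kinetochore gene, was higher by 1.70 and 1.25 in the stimulated clones, and *Ung*, which encodes the uracil DNA glycosylase, was lower by a log2 fold change of -2.52 and -2.50. Of 14 other E2F, DREAM and MuvB regulators, *E2f6*, a repressor of G1/S genes, was lower in all 4 comparisons. It measured 27.1, 31.1 and 31.9 CPM in uninduced WT and 60.5, 60.4 and 56.1 CPM in stimulated WT, against 7.22 to 12.5 CPM in the 12 clone libraries (log2 fold changes -1.52 and -1.80 uninduced, -2.39 and -2.26 stimulated, adjusted p at most 9.73e-13, edgeR).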

How the data were processed

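Poly(A) RNA of 18 libraries was sequenced by the authors, who aligned the reads with HISAT2 to the mouse genome mm10 and deposited raw counts per gene. Which program, annotation release and strand setting produced them is not given in the sources used here. Library totals ran from 15576685 to 42005596 counts, and floors of 3 counts over a group (0.0354 to 0.0603 CPM) cover counting error only. No column of per-sample values was left unmapped. Counts were tested with edgeR 4.0.16 (R 4.3.3; filterByExpr with a minimum count of 10, TMM, robust glmQLFit and glmQLFTest) in 1 model of 6 group means over all 18 libraries, with Benjamini-Hochberg adjustment over 14317 genes. A DEG had an adjusted p below 0.05 and a log2 fold change beyond 1. Differences in response were interaction contrasts. CPM use TMM-scaled totals. The script was tested on simulated data. Alternatives were DESeq2 1.42.0, its size factors, library totals, other filters and fold rules, fits to the groups compared, a replicate block, and leaving out each library.

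The 60 genes, their roles and the other pathway lists were chosen with earlier results of these data known. Full values are given for members called alike in both clones of a treatment, the 2 members of each role group with the largest called change, members called oppositely in the clones, the 3 largest called rises and falls on stimulation in WT, D-type cyclins and CDK inhibitors, with at most 3 genes of each other list. *Ccnb1*, *Mcm3*, *Kif20a*, *Top2a*, *Rrm2*, *Rb1*, *E2f1*, *Cdk4*, *Cdk6*, *Ccne1*, *Cdk1* and *Cdc20* are named beyond this rule and were chosen after their values were seen. Coordinates of 57 of the 59 members matched the GENCODE M21 annotation of GRCm38. Figures were drawn with matplotlib 3.10.9 in Python 3.11.15.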

Additional observations from a re-analysis of the deposited data

Results flagged for a closer look

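The following members responded differently to stimulation in a clone than in WT, by the interaction test and beyond the fold threshold (edgeR, adjusted p below 0.05 over all genes tested). Values are the response of the clone minus that of WT on the log2 scale, and both sets share the WT response. In clone 1, the D-type cyclins *Ccnd1* and *Ccnd2* differed by -2.28 and -1.25, *Ccne1* by -1.11, *E2f8* by -2.23 and *Cdc6* by -1.68, and *Cdc25b* by 1.04. In clone 2, *Ccnd1* and *Ccnd2* differed by -1.12 and -1.32, *Ccne2* by -1.59, the atypical E2F genes *E2f7* and *E2f8* by -1.08 and -1.66, *Cdc6* by -1.37, *Mcm2*, *Mcm3* and *Mcm5* by -1.04, -1.26 and -1.11, and the mitotic genes *Kif20a*, *Cenpa* and *Cenpe* by -1.42, -1.25 and -1.02. Depth, the adipocyte marker sum and the line each differed between these groups as given above, and their part in the differences was not tested.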

How the results depend on the processing

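Checked were 414 differences of single members that passed the adjusted p, without those of *Cdkn2a* and *Cdkn2b* between the clones and WT. Of these, 3 were lost with DESeq2, 4 with its size factors, 8 without the filter and 5 with a filter of 1 CPM. Fits to the groups compared lost 13, the replicate block 7 and library totals 39 (an alternative chosen after seeing the data). When each library was left out in turn, 61 were lost at least once. Library totals moved all genes on stimulation in clone 1 by -0.24, which by construction takes *Mcm7* from 0.21 to -0.027. No other of the 414 differences changed sign. Library totals gave 10 DEG members for the clone 2 response, and no filter gave 5 for the WT response.

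Without the fold threshold, by construction, the DEG members became 39 and 44 for uninduced clones 1 and 2 against WT, 49 and 45 for stimulated ones, 43, 45 and 34 for the responses of WT, clone 1 and clone 2, 27 and 38 for clone 1 against clone 2 uninduced and stimulated, and 27 and 31 for the differences in response. With glmTreat, which tests against a fold of 2, the counts were 3, 7, 9 and 3 for the clones against WT in that order, 5 for the clone 1 response, 1 for uninduced clone 1 against clone 2, and 3 and 2 for the differences in response. For the WT response glmTreat (edgeR) gave 0.

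When single libraries were dropped, the counts ran from 6 to 10, 11 to 14, 16 to 21 and 7 to 9 for the clones against WT, 2 to 7, 11 to 13 and 5 to 6 for the responses, 2 to 3 and 4 to 5 between clones, and 5 to 8 and 9 to 14 for the differences in response. For the WT response the count was 7 without uninduced replicate 2 or 3, 5 without stimulated replicate 1 and 6 without stimulated replicate 3.

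Over all genes tested, same-numbered libraries did not deviate together (r between -0.0412 and 0.0498 over 15 pairs of groups). Whether they share a culture or a preparation is not given in the labels, and these correlations cannot show it. With the replicate block the DEG members were 7, 13, 18 and 8 for the clones against WT, 3, 12 and 6 for the responses, 3 and 4 between clones, and 6 and 12 for the differences in response.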
